A study of Drosophila melanogaster with 9 samples.

Results

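Among the transposable element (TE) insertions called in double-GKD flies, 278 sites belonged to the INE-1 element and lay on the chromosome arms X, 2L, 2R, 3L and 3R. These 278 were chosen by family name and arm alone, from 403 INE-1 sites on all sequences and 4084 sites of all families. The 125 INE-1 sites on chromosome 4, on the assembled heterochromatin and on unplaced sequence were left out, 46 of them on chromosome 4. Other families had 2196 sites on the same 5 arms. DNA came from whole double-GKD females aged 2–4 days and reared at 18 °C, pooled into 1 library, so no site has a replicate and no difference between sites was tested. Ovaries of females aged 0–1 day gave 8 RNA libraries, 2 each of double-GKD, Piwi-GKD, HP1a-GKD and Ctrl. All 4 genotypes carried UAS-Dcr-2 and the nanos driver GAL4-nos.NGT, which acts in germ cells and leaves the somatic cells of the ovary with their mRNA. Double-GKD flies carried RNAi transgenes against both piwi and HP1a, the single knockdowns 1 of these transgenes each, and Ctrl flies neither. By the labels, Ctrl flies carried the balancers Cy and TM3, Piwi-GKD flies TM3 and HP1a-GKD flies Cy, while the double-GKD flies whose DNA was sequenced carried no balancer. A site called in that DNA may therefore be absent from a balancer chromosome of another genotype, and the effects of a balancer and of a missing RNAi transgene cannot be told apart in these RNA libraries.

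INE-1 is a short element without coding capacity of its own, copied long ago by a rolling-circle (Helitron) mechanism. It is known as one of the most numerous TEs of *Drosophila melanogaster*, with copies concentrated in pericentromeric chromatin and on the small chromosome 4, and most of its copies are old. Pericentromeric chromatin carries methylated histone H3 bound by Heterochromatin Protein 1a (HP1a), and in germ cells the Piwi protein guides the silencing of active TEs with small RNAs. PoPoolationTE2, the caller used by the authors, places a site where read pairs join a TE to unique sequence, and gives it a frequency, the share of the pairs spanning the site that support the insertion. An insertion present on a single homologue of every fly would have a frequency near 0.5, and one present on all chromosomes a frequency of 1.

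INE-1 had more sites on the 5 arms than any of the other families, of 118 families in all. The next were *roo*, a retrotransposon with long terminal repeats, with 204 sites, the DNA transposon *1360* with 178 and the non-LTR retrotransposon *jockey* with 102. The X chromosome held 70 INE-1 sites, 2L held 65, 2R held 62, 3L held 51 and 3R held 30. INE-1 made up 16.8% of all sites on the X (exact 95% binomial interval, 13.4–20.8%), 11.6% on 2L (9.09–14.6%), 10.4% on 2R (8.04–13.1%), 9.68% on 3L (7.29–12.5%) and 8.02% on 3R (5.48–11.3%). The X stood highest and 3R lowest in this order, and the intervals of neighbouring arms overlapped. All intervals given here cover counting error only, since read pairs amplified by PCR are not independent molecules and sites close together are not independent of each other.

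The deposited frequencies of INE-1 sites were mostly below 1, and whether a site is also in the reference assembly was not analysed. The median frequency of an INE-1 site was 0.689 (95% order-statistic interval, 0.667–0.707), against 0.765 (0.748–0.786) for sites of other families. The lowest INE-1 frequency was 0.186, the quartiles were 0.533 and 0.894, and 52 of 278 sites (18.7%, 14.3–23.8%) stood at 1. Among other families 590 of 2196 sites (26.9%, 25.0–28.8%) stood at 1. The 2 shares had intervals that did not overlap, with INE-1 the lower. *1360*, which of the next 3 families was nearest to INE-1 in its place on the arms, had a median of 0.923 and 40.4% of its sites at 1. *roo* and *jockey* had medians of 0.615 and 0.634, with 3.92% and 6.86% of sites at 1. At or above 0.5 stood 223 INE-1 sites (80.2%), against 80.8% of sites of other families, a share within the interval of INE-1 (75.0–84.7%). By range, 26 INE-1 sites lay under 0.4, 73 from 0.4 to under 0.6, 84 from 0.6 to under 0.8 and 43 from 0.8 to under 1.

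These frequencies rest on few read pairs. The total physical coverage of an INE-1 site had a median of 4.11 pairs and ran from 2.00 to 12.6, against a median of 4.66 for other families, and 128 INE-1 sites (46.0%) had a coverage under 4. No site in the data had a supporting coverage under 2, so that a site covered by 2 pairs could be called at a frequency of 1 only, and one covered by 4 pairs at 0.5 or above. In the 57 INE-1 sites with a coverage from 2 to under 3, the median frequency was 1 and 31 sites stood at 1. From 3 to under 4 the median was 0.742 over 71 sites, from 4 to under 5 it was 0.628 over 70, and from 5 to under 6 it was 0.600 over 37. In the 43 sites covered by 6 pairs or more the median was 0.410, and 1 of them stood at 1. In other families the medians over the same 5 ranges were 1, 0.878, 0.734, 0.645 and 0.546. A fall of frequency with coverage is in part built into such values, because at least 2 supporting pairs are needed for a call at any coverage.

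**Figure D1:**
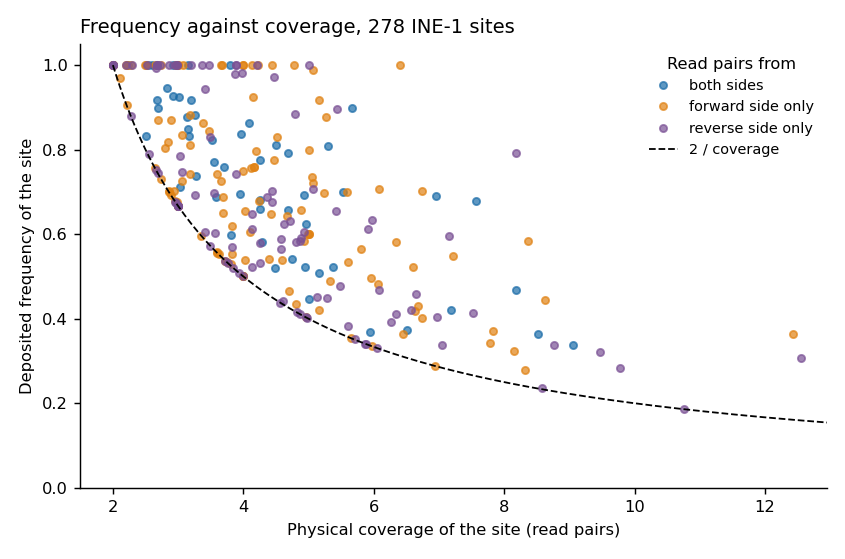
Frequency of each of the 278 INE-1 sites (vertical axis, as deposited) against the total physical coverage of the site in read pairs (horizontal axis), with colours for support from both sides, the forward side or the reverse side. The dashed line is 2 divided by the coverage, and no site lies under it. Of the 52 sites at a frequency of 1, 31 have a coverage under 3.

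Sites of other families had higher frequencies at similar depth. At a coverage of at least 5, a limit set after seeing the data, the 80 INE-1 sites had a median frequency of 0.463 (0.419–0.535) and the 908 sites of other families one of 0.595 (0.567–0.626). The *1360* sites at this coverage numbered 50 and had a median of 0.871 (0.758–0.979). *roo* had 0.555 over 122 sites (0.513–0.618) and *jockey* 0.569 over 54 (0.497–0.631), with intervals that overlapped that of INE-1. Of the 80 INE-1 sites 2 stood at 1 (2.50%, 0.304–8.74%), against 118 of 908 (13.0%, 10.9–15.4%) in other families and 17 of 50 (34.0%, 21.2–48.8%) in *1360*. In the better covered sites INE-1 was thus lower in frequency than the other families together and than *1360*, with intervals that did not overlap. For single sites the intervals were wide. With coverage rounded to whole pairs, the exact interval of 277 of the 278 INE-1 sites included 0.5. That of 195 sites lay below 1, where at least 1 spanning pair did not support the insertion, and that of 82 sites included both 0.5 and 1.

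The 5 INE-1 sites lowest in frequency were among the better covered ones, as they had to be, since no site had a supporting coverage under 2. Each rested on 2 to 2.78 supporting pairs, and the upper bounds of their exact intervals ran from 0.518 to 0.710. The lowest, at position 14706998 of 2L (release 5 of the genome, dm3), had a frequency of 0.186 from a coverage of 10.8 pairs, and lay far from any other INE-1 site of that arm. Next came position 9054352 of X with 0.236 from 8.58 pairs. The sites at 21300494 and 21726164 of 2L had 0.278 and 0.284, and that at 1630798 of 2R had 0.288. The last 3 lay within the 2 Mb next to the proximal end of their arm, and all 5 were supported by read pairs from a single side.

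INE-1 sites were concentrated at the proximal ends of the arms, the ends next to the centromere. Within 2 Mb of the proximal end lay 194 of 278 INE-1 sites (69.8%, 64.0–75.1%), against 908 of 2196 sites of other families (41.3%, 39.3–43.4%). The proximal end is the first base of 2R and 3R, and the last site called on X, 2L and 3L. In this share INE-1 was near *1360* (74.7%) and far from *roo* (10.3%) and *jockey* (1.96%). The 64 INE-1 sites more than 5 Mb away were 23.0% of the family, against 46.7% in other families.

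The position differed from that of other proximal sites in its detail. The share of INE-1 among all sites peaked in the second megabase from the proximal end. This megabase held 104 INE-1 sites and 300 others, while the first megabase held 90 and 608. Of the INE-1 family these were 37.4% (31.7–43.4%) and 32.4% (26.9–38.2%), with intervals that overlapped. INE-1 made up 12.9% (10.5–15.6%) of all sites in the first megabase, 25.7% (21.5–30.3%) in the second and 9.30% (4.90–15.7%) in the third. From 3 to 5 Mb the share was 5.23%, from 5 to 10 Mb 5.91%, and beyond 10 Mb 5.85%. The interval of the second megabase overlapped with none of the others. *1360* had its highest number of sites, 93, in the first megabase and 40 in the second.

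**Figure D2:**
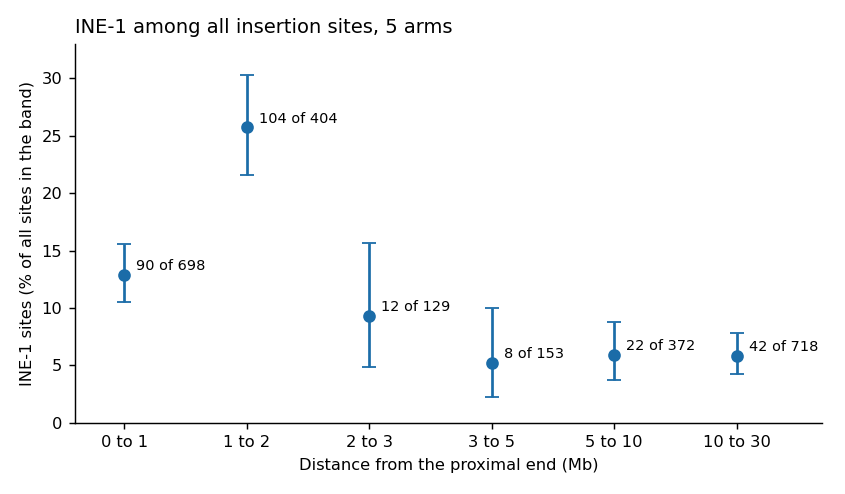
INE-1 sites as a percentage of all insertion sites (vertical axis) in bands of distance from the proximal end of the arm in Mb (horizontal axis), over the 5 arms. Points are shares with their counts, and bars are exact 95% binomial intervals. The band from 1 to 2 Mb stands highest, at 25.7%, and the bands beyond 3 Mb lie between 5.23 and 5.91%.

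The arms were unlike in this pattern. In the second megabase, INE-1 made up 36.8% of all sites on X (14 of 38), 34.8% on 2L (31 of 89), 27.4% on 2R (32 of 117) and 18.7% on 3L (26 of 139). On 3R it was 1 site of 21 (4.76%, 0.120–23.8%), and there 16 of the 17 proximal sites lay in the first megabase. On X, too, the first megabase held more INE-1 sites than the second (19), while it held fewer on 2L (25), 2R (20) and 3L (10). The proximal 2 Mb held 86.2% (75.3–93.5%) of the INE-1 sites of 2L and 83.9% (72.3–92.0%) of those of 2R. For 3L the share was 70.6% (56.2–82.5%), for 3R 56.7% (37.4–74.5%) and for X 47.1% (35.1–59.4%). The X thus held 37 INE-1 sites outside its proximal 2 Mb, more than 2L (9), 2R (10), 3L (15) or 3R (13). On every arm the proximal share was higher in INE-1 than in other families, which had 28.6% on X, 45.3% on 2L, 49.1% on 2R, 52.1% on 3L and 21.5% on 3R.

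A smaller group of INE-1 sites stood at the distal ends, next to the telomeres. The last 1 Mb of the 5 arms held 21 INE-1 sites (7.55% of the family) and 65 sites of other families (2.96%). INE-1 made up 24.4% (15.8–34.9%) of the sites called there, a share close to that of the second proximal megabase. The X tip had 10 of the 21, 3R had 5, 3L had 4, 2R had 2 and 2L had none of 9 sites of any family. The 10 sites of the X tip lay between positions 26767 and 615688, with frequencies from 0.468 to 1.

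The median frequency differed less between positions in INE-1 than in other families. INE-1 sites within 2 Mb of the proximal end had a median frequency of 0.691 (0.657–0.745), and those farther out 0.679 (0.603–0.707), so that the 2 intervals overlapped. Sites of other families had 0.994 (0.956–1) within 2 Mb and 0.637 (0.620–0.660) farther out. The share at a frequency of 1 was higher near the proximal end in both. It was 22.2% (43 of 194, 16.5–28.7%) within 2 Mb and 10.7% (9 of 84, 5.02–19.4%) farther out in INE-1, with intervals that overlapped, and 49.3% (46.0–52.6%) and 11.0% (9.37–12.9%) in other families. At a coverage of at least 5 the medians of INE-1 were 0.465 over 46 proximal sites and 0.463 over 34 others, and those of other families 0.854 over 254 and 0.532 over 654. Coverage was about the same in proximal INE-1 sites (median 4.00) and in proximal sites of other families (4.08). Among proximal sites, then, INE-1 had lower frequencies than its neighbours of other families at similar depth. By arm the median INE-1 frequency was 0.709 on X, 0.678 on 2L, 0.675 on 2R, 0.697 on 3L and 0.666 on 3R, and 3R had 1 site at a frequency of 1 where the other arms had 12 to 14.

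**Figure D3:**
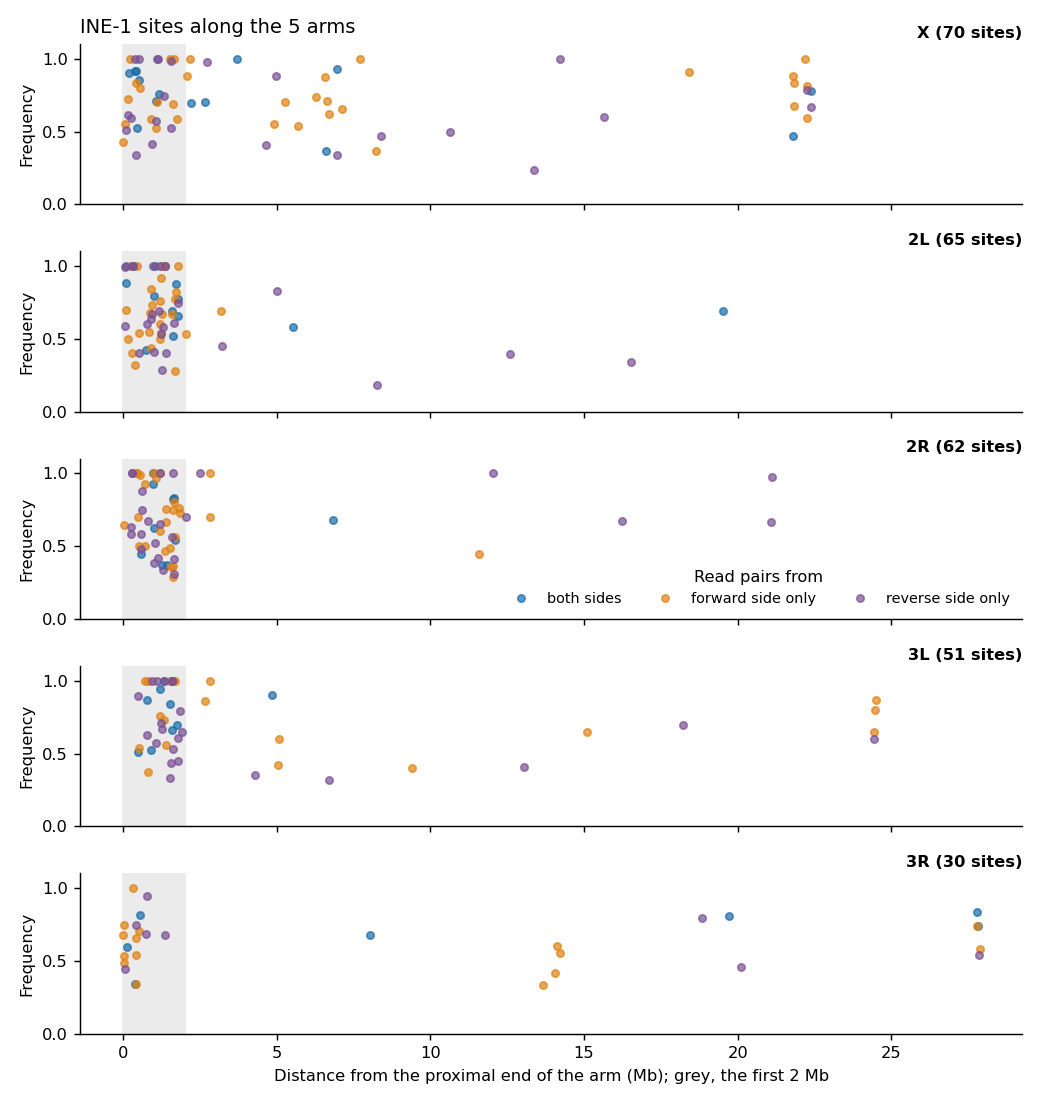
Frequency of each INE-1 site (vertical axis) against its distance from the proximal end in Mb (horizontal axis), in 1 panel per arm. Grey marks the first 2 Mb, and colours show support from both sides, the forward side or the reverse side. Of the 278 sites 194 lie in the grey bands, a second group lies at the distal ends of X, 3L and 3R, and high and low frequencies occur in both.

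Support from both sides of an insertion was less common for INE-1 than for other families. Read pairs from both sides supported 53 INE-1 sites (19.1%, 14.6–24.2%), against 662 of 2196 other sites (30.1%, 28.2–32.1%). Pairs from the forward side alone supported 121 INE-1 sites, and pairs from the reverse side alone 104. The share with both sides was 19.6% within the proximal 2 Mb and 17.9% outside it. The sites supported from both sides had a median frequency of 0.760. The inserted element lay on the plus strand at 141 sites and on the minus strand at 136, and at 1 site no orientation was given. Plus sites were 49.7% of proximal sites with an orientation (42.5–57.0%) and 53.6% of those farther out (42.4–64.5%), with intervals that overlapped.

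INE-1 sites lay close to each other. The median distance from an INE-1 site to the nearest other INE-1 site on its arm was 12501 bases (11016–19222), and it ranged from 290 bases to several megabases. Another INE-1 site within 10 kb was found for 115 sites (41.4%, 35.5–47.4%), and within 100 kb for 234 (84.2%). *1360* was alike, with a median of 11545 bases (7702–19610) and 48.3% of sites within 10 kb. *roo*, with fewer sites over the same arms, had a median of 187030 bases and 6.37% within 10 kb, and *jockey* 276264 bases and 9.80%. The spacing followed the place on the arm. Outside the proximal 2 Mb the median distance between INE-1 sites was 81377 bases, and 11 of 84 sites (13.1%) had another within 10 kb.

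**Figure D4:**
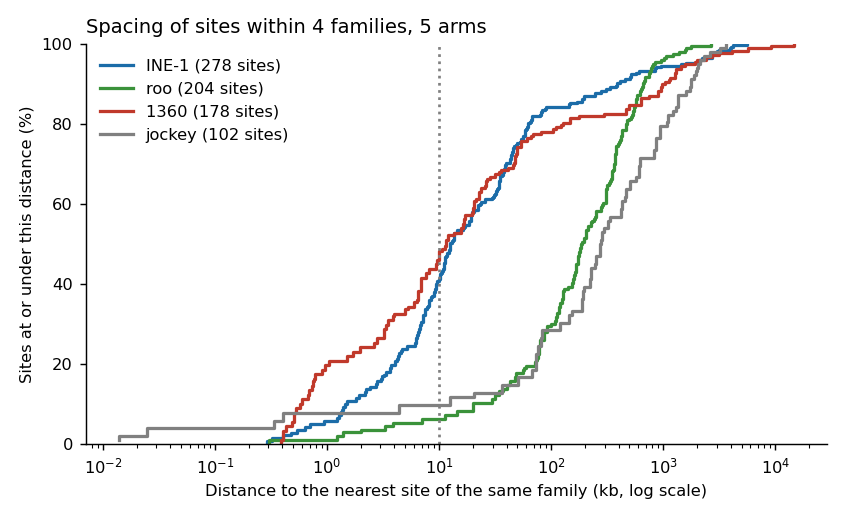
Cumulative percentage of sites (vertical axis) by the distance to the nearest site of the same family on the same arm in kb (horizontal axis, log scale), for INE-1 and the 3 families with the next highest site numbers. The dotted line marks 10 kb. INE-1 and 1360 reach 41.4 and 48.3% there, and roo and jockey 6.37 and 9.80%.

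Linking neighbours at up to 10 kb gave 47 groups, and 163 sites stayed alone. Of these groups, 31 had 2 sites, 13 had 3, 2 had 4 and 1 had 6, and 42 of the 47 lay within 2 Mb of a proximal end. Both orientations occurred in 28 groups. The largest group, with 6 sites, spanned positions 1656047 to 1682424 of 2R. Its frequencies were 0.805, 0.833, 0.306, 0.410, 0.564 and 0.541 in the order of position, so that high and low values stood side by side, and coverage there ran from 2.50 to 12.6. A second group on 2R, next to the first, had 4 sites from 1621033 to 1634802, at 0.750, 0.364, 0.288 and 1. The third group of 4 or more sites lay on 2L from 21200437 to 21208691, at 1, 0.745, 0.771 and 0.657. Both groups on 2R fell into a stretch of 100 kb, from 1600001 to 1700000, that held 11 INE-1 sites against 4 sites of other families and was the densest of all. The next, from 21700001 to 21800000 of 2L, held 10 INE-1 and 11 other sites, and that from 22900001 to 23000000 of 3L held 8 and 6. The 11 such stretches with 5 or more INE-1 sites together held 73 of the 278.

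A few sites lay under 1 kb apart, and whether both belong to 1 insertion was not tested. The closest pair, 290 bases apart at 22651851 and 22652141 of 2L, had both sites at a frequency of 1. The next, 322 bases apart at 21708427 and 21708749 of 2L, had 0.667 and 1. On 3L a pair 409 bases apart at 22908949 and 22909358 had 1 at both sites, and one 480 bases apart at 24067732 and 24068212 had 0.507 and 0.897. The fifth pair, 543 bases apart at 21383548 and 21384091 of 2L, had 0.667 and 0.689. Both sites were on the plus strand in 4 of these 5 pairs. Of the 8 neighbouring pairs within 1 kb, 7 had the same orientation (87.5%, 47.3–99.7%), against 25 of 60 pairs from 1 to 10 kb apart (41.7%, 29.1–55.1%). None of the 8 was a site supported from the forward side alone followed by one supported from the reverse side alone. Within a pair under 1 kb the 2 frequencies differed by a median of 0.131, and in pairs from 1 to 10 kb by 0.227. Merging sites within 1 kb left 270 sites, of which 37.4% had another INE-1 site within 10 kb.

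Sites of other families were often nearer than the next INE-1 site. With 2196 such sites against 278 of INE-1 on these arms, the shorter distance cannot tell a trait of placement from number. The nearest site of another family lay at a median of 5986 bases, 3970 within the proximal 2 Mb and 17925 farther out. It was within 1 kb for 35 INE-1 sites (12.6%), 31 of them proximal. *1360* was the nearest family most often, for 38 INE-1 sites (13.7%), while it made up 8.11% of the sites of other families on the whole arms. Within the proximal 2 Mb it was the nearest for 29 of 194 INE-1 sites (14.9%, 10.2–20.8%) and made up 14.6% of the other sites there, so that the excess was not seen among proximal sites. *roo* was the nearest for 21 (7.55%, against 9.29% of other sites), and the foldback element *FB* for 20 (7.19%, against 3.78%). Within the proximal 2 Mb *FB* was the nearest for 14 INE-1 sites (7.22%, 4.00–11.8%), against 2.20% of other sites there. *FB* was not alone in this, and the family *HB* was the nearest more often, for 16 (8.25%, 4.79–13.0%, against 2.53%). *Ivk* (4.12%, against 0.771%) and *Transpac* (3.09%, against 0.551%) also stood above their shares of other sites there. *Cr1a* stood below its share (3.61%, 1.46–7.29%, against 8.04%). These families were picked from all those nearest to an INE-1 site, and the intervals take INE-1 sites as independent. Neighbouring INE-1 sites can share 1 nearest site, as did all 4 of the group from 1621033 to 1634802 of 2R, with 1 *HB* site. *ZAM* was the nearest for 5 proximal INE-1 sites (2.58%, against 0.220%), with 2 *ZAM* sites there. Whether the excesses remain with each such neighbour counted once was not tested.

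To describe the genes beside these sites, release 5 spans were available for 1962 genes on the 5 arms, which are those with the lowest FlyBase numbers. They were not chosen by expression, but 1803 of the 1962 had enough counts to be tested, against 9346 of 13937 genes in all. Of the 1962, 19 genes held an INE-1 site within their span, and 39 lay within 3 kb of one. The 19 genes held 29 of the 278 sites, and exons and introns were not told apart. They were long genes, with a median span of 20629 bases, against 3563 bases for the 1900 genes more than 10 kb from any INE-1 site. A longer span is more likely to hold a site wherever sites fall, so this difference cannot show a preference for long genes. The median level of the 19 genes in Ctrl ovaries was 22.2 TPM, against 21.8 TPM for the distant genes. TPM is a level set relative to transcript length and to the total of its library.

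The gene *sdk*, for an adhesion protein of the immunoglobulin superfamily, held the most, with 4 sites on the X tip at frequencies of 0.676, 0.830, 0.468 and 0.881, all in the plus orientation. *CG3777*, also on the X tip, held 3, at 0.596, 0.785 and 1. Pairs of sites lay in *alpha-Cat*, which joins cadherins to actin (0.707 and 0.945), *heph*, for an RNA-binding protein of the polypyrimidine-tract-binding family (0.742 and 0.833), *fog*, for a secreted ligand of gastrulation (0.899 and 0.612), the zinc transporter gene *ZnT41F* (0.306 and 0.410) and *Snap25*, for a protein of synaptic vesicle fusion (0.507 and 0.897). The 2 sites of *ZnT41F* belong to the group of 6 on 2R, and those of *Snap25* are a pair under 1 kb. Single sites lay in *crc*, for a stress-responsive transcription factor (0.612), *cta*, for the G-protein subunit downstream of Fog (1), and *lt*, a vesicle-trafficking gene known for needing heterochromatin around it (0.5). The other 9 of the 19 genes held 1 site each, at frequencies from 0.6 to 1.

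The knockdown libraries were checked on the targeted genes before anything was read from them. *piwi* had 158 and 147 TPM in double-GKD, 259 and 229 TPM in the Piwi-GKD-labelled libraries and 129 and 134 TPM in the HP1a-GKD-labelled ones, against 318 and 276 TPM in Ctrl. HP1a mRNA had 161 and 172 TPM in double-GKD, 166 and 189 TPM in the Piwi-GKD-labelled libraries and 342 and 358 TPM in the HP1a-GKD-labelled ones, against 327 and 328 TPM in Ctrl. The library labels of the single knockdowns thus go against the mRNA of both targets, and the names of the deposited tables also give each pair the other knockdown. A value given below for a single knockdown may therefore belong to the other one, and the libraries are called by their labels only. The summed levels of cell type markers moved with the groups. The 4 of 5 germline markers found summed to 253 and 260 TPM in double-GKD, 281 and 272 in the Piwi-GKD-labelled libraries and 1093 and 1079 in the HP1a-GKD-labelled ones, against 1258 and 1301 in Ctrl, and all 4 fell in the first 2 comparisons. The 4 muscle markers summed to 7164 and 5801 TPM in double-GKD, 7868 and 6061 in the Piwi-GKD-labelled libraries and 2050 and 2214 in the HP1a-GKD-labelled ones, against 1916 and 1777 in Ctrl, and all 4 rose in the first 2. The 4 follicle cell markers summed to 415 and 291 TPM in double-GKD, 369 and 214 in the Piwi-GKD-labelled libraries and 136 and 93.4 in the HP1a-GKD-labelled ones, against 117 and 66.6 in Ctrl, with 1 of the 3 tested called up in each of the first 2. The part of these shifts in the results below was not tested, and fewer cells of a type cannot be told apart from less RNA per cell.

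For genes within 3 kb of an INE-1 site, the share called had an interval that included the share over all genes in each comparison and direction of the main edgeR fit. That fit had no replicate block. With DESeq2 or with the block, the share called up in the HP1a-GKD-labelled libraries was higher than in the main fit and above that over all genes, and no interval was taken. In double-GKD against Ctrl, 9 of the 37 tested genes within 3 kb of an INE-1 site were called up (24.3%, 11.8–41.2%; edgeR's quasi-likelihood test, adjusted p under 0.05) and 7 down (18.9%, 7.96–35.2%). Over all 9346 genes tested, 28.1% were called up and 28.1% down. Of the same 37, 10 were up (27.0%) and 9 down (24.3%) in the Piwi-GKD-labelled libraries, against 29.3% and 29.1% over all genes. In the HP1a-GKD-labelled ones, 2 were up (5.41%, 0.661–18.2%) and none was down, against 0.877% and 0.492% over all genes. The genes with spans more than 10 kb from any INE-1 site, 1745 of them tested, had somewhat different shares. They were 29.0% up and 31.3% down in double-GKD, 29.1% and 35.0% in the Piwi-GKD-labelled libraries and 0.688% and 0.573% in the HP1a-GKD-labelled ones. These shares also lay within the intervals of the genes within 3 kb. The median log2 fold change of the 37 genes was -0.01 in double-GKD and -0.02 in the Piwi-GKD-labelled libraries, against 0.00 over all genes in each. For the count of 0, an unadjusted p under 0.05 was reached by 1 gene and DESeq2 also called none. The 3 comparisons share the Ctrl libraries. Both genes up in the HP1a-GKD-labelled libraries, *CG3777* and *rut*, were among the 19 that hold a site, and there they made up 10.5% (1.30–33.1%), an interval above the 0.877% over all genes. This higher share rests on 2 genes, and no gene near INE-1 was called up there without Ctrl replicate 1, Ctrl replicate 2 or HP1a-GKD replicate 1, and 1 without HP1a-GKD replicate 2 or either double-GKD replicate.

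Of the 10 genes holding the most sites, *CG3777* differed most from Ctrl. It had 5.87 and 5.43 TPM in double-GKD, 7.58 and 6.30 TPM in the Piwi-GKD-labelled libraries and 2.22 and 2.09 TPM in the HP1a-GKD-labelled ones, against 1.14 and 0.847 TPM in Ctrl. The knockdown libraries were all above both Ctrl libraries. Its log2 fold change was 2.20 ± 0.15 (SE) in double-GKD (edgeR adjusted p = 3.6e-05), 2.41 ± 0.16 in the Piwi-GKD-labelled libraries (2.3e-05) and 1.08 ± 0.15 in the HP1a-GKD-labelled ones (0.0225), where the adjusted p was 0.0658 without Ctrl replicate 1, 0.151 without Ctrl replicate 2, 0.160 and 0.128 without HP1a-GKD replicates 1 and 2, and 0.0537 and 0.0561 without double-GKD replicates 1 and 2. *rut*, for an adenylyl cyclase, holds 1 site at a frequency of 1 from 2 pairs and was chosen after its values were seen. It had 18.2 and 14.4 TPM in double-GKD, 21.0 and 13.7 TPM in the Piwi-GKD-labelled libraries and 11.9 and 9.76 TPM in the HP1a-GKD-labelled ones, against 4.42 and 3.34 TPM in Ctrl, again without overlap. In the HP1a-GKD-labelled libraries its log2 fold change was 1.35 ± 0.17 (edgeR adjusted p = 0.0129), with an adjusted p of 0.0540 without Ctrl replicate 1, 0.115 without Ctrl replicate 2 and 0.0951 without HP1a-GKD replicate 1.

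*ZnT41F* and *fog* also rose. *ZnT41F* had 22.4 and 19.9 TPM in double-GKD and 29.7 and 24.5 TPM in the Piwi-GKD-labelled libraries, against 8.52 and 9.47 TPM in Ctrl, with log2 fold changes of 0.92 ± 0.13 and 1.15 ± 0.13. In the HP1a-GKD-labelled libraries it had 9.15 and 9.26 TPM, within the range of Ctrl. *fog* had 60.6 and 51.2 TPM in double-GKD and 68.7 and 51.9 TPM in the Piwi-GKD-labelled libraries, against 32.6 and 30.1 TPM in Ctrl, with log2 fold changes of 0.55 ± 0.09 and 0.59 ± 0.09. In the HP1a-GKD-labelled libraries *fog* had 41.5 and 43.2 TPM, above both Ctrl libraries, but did not pass the test (edgeR adjusted p = 0.117). *crc* had 527 and 457 TPM in double-GKD and 546 and 410 TPM in the Piwi-GKD-labelled libraries, against 330 and 266 TPM in Ctrl. In double-GKD its edgeR adjusted p was 0.00835, and 0.0503 without double-GKD replicate 1. In the Piwi-GKD-labelled libraries its adjusted p was 0.0352, and it was above the threshold without any one library but Ctrl replicate 1 or Piwi-GKD replicate 2, at 0.230 without Piwi-GKD replicate 1 and 0.158 without Ctrl replicate 2.

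*cta* and *sdk* fell. *cta* had 54.9 and 51.5 TPM in double-GKD and 60.2 and 65.1 TPM in the Piwi-GKD-labelled libraries, against 75.9 and 87.0 TPM in Ctrl, with log2 fold changes of -0.95 ± 0.15 and -0.78 ± 0.15. *sdk* had 36.8 and 30.8 TPM in double-GKD and 37.1 and 25.5 TPM in the Piwi-GKD-labelled libraries, against 47.1 and 32.0 TPM in Ctrl, so its TPM values overlapped. Its log2 fold change was -0.53 ± 0.15 in double-GKD (edgeR adjusted p = 0.0219), with an adjusted p of 0.106 without Ctrl replicate 1 and 0.0672 and 0.0958 without double-GKD replicates 1 and 2, and -0.73 ± 0.16 in the Piwi-GKD-labelled libraries (0.00535). TPM and the fold changes are on different scales, since TMM scaling sets the median gene near no change. On the log2(TPM + 0.1) scale the median of all genes tested was 0.32 higher in double-GKD, 0.39 higher in the Piwi-GKD-labelled libraries and 0.05 higher in the HP1a-GKD-labelled ones than in Ctrl.

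**Figure D5:**
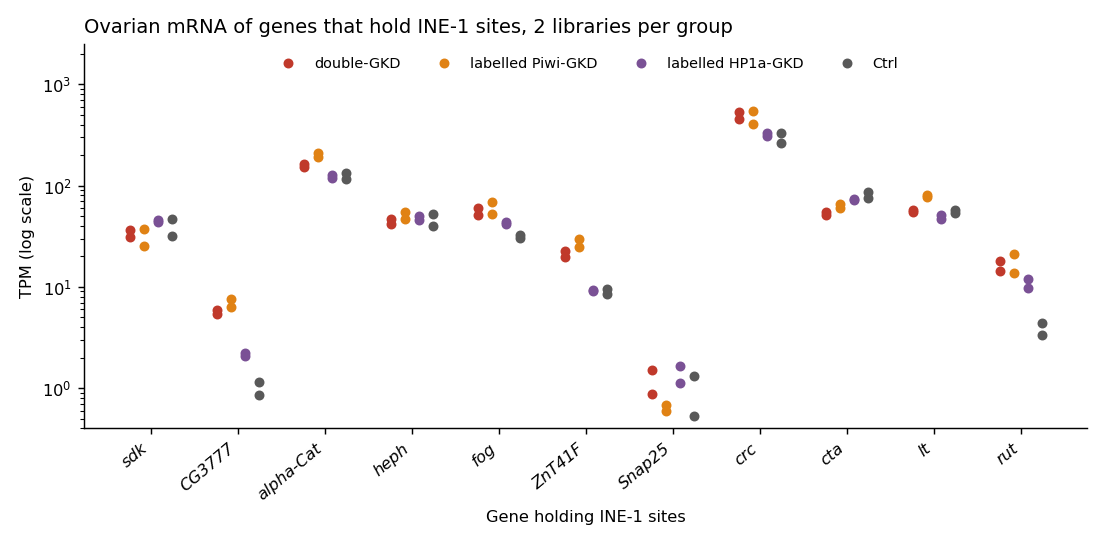
TPM (vertical axis, log scale) of the 10 genes that hold the most INE-1 sites and of rut (horizontal axis), with 1 point per library and 2 libraries per group. Points of CG3777 and rut lie higher in all knockdown libraries than in Ctrl, those of ZnT41F in double-GKD and the Piwi-GKD-labelled libraries only, and those of heph overlap in all groups.

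The other 4 of these genes passed the test in no comparison with all libraries and no replicate block. *alpha-Cat* had 151 and 164 TPM in double-GKD, against 117 and 132 TPM in Ctrl, and a log2 fold change of 0.01 ± 0.17. *heph* had 46.5 and 41.8 TPM in double-GKD, against 52.0 and 39.9 TPM in Ctrl. *lt*, in the heterochromatin next to the proximal end of 2L, had 57.7 and 55.4 TPM in double-GKD, against 54.2 and 57.6 TPM in Ctrl, and a log2 fold change of -0.31 ± 0.12 with an edgeR adjusted p of 0.0643, which was 0.0342 without Ctrl replicate 1 and 0.0370 and 0.0394 without Piwi-GKD replicates 1 and 2. *Snap25* was at 0.873 and 1.49 TPM in double-GKD and 0.534 and 1.30 TPM in Ctrl, on 13 to 38 estimated counts, and in the Piwi-GKD-labelled libraries its adjusted p of 0.161 was 0.0333 without Ctrl replicate 1.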

How the data were processed

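INE-1 sites came from a list of TE insertions in 1 DNA library of double-GKD flies. The authors mapped read pairs to release 5 of the genome (dm3) and to consensus TE sequences, and called sites with PoPoolationTE2. The deposited frequency is a fraction from 0 to 1, and the deposited coverages are average numbers of spanning and supporting read pairs. The quotient of these coverages differed from the frequency by over 0.001 at 619 of 4084 sites, all supported from both sides, so the deposited frequency was used. Shares have exact (Clopper-Pearson) 95% binomial intervals and medians have order-statistic intervals. Sites were linked at 10 kb and merged at 1 kb.

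For RNA, the authors quantified genes with Salmon, and the deposited estimated counts (10773406 to 12802084 per library, 13937 genes) are not normalized. The deposited TPM values are scaled by the authors to 1 fixed sum in each library. The submitters' processing notes also name STAR, HISAT2 and bedtools, and give no versions. Rounded counts were fitted with glmQLFit of edgeR 4.0.16 (R 4.3.3) over all 8 libraries, with TMM scaling and filterByExpr, and adjusted by Benjamini-Hochberg over 9346 genes. The fit was tested on simulated data. Replicates are biological by the labels. Gene spans of release 5 came from a supplementary table of the study, of which part was used. Gene names came from a FlyBase name table, which held 13389 of the 13937 identifiers, and 1 gene that holds a site has no name there. Groups followed the labels. The named genes are the first 10 that hold INE-1 sites, by number of sites and then Ctrl TPM, and *piwi* and the HP1a gene. The sites named are the linked groups of 4 or more, the 5 lowest in frequency and the 5 closest pairs. Members and lists were chosen with earlier results of these data known. Alternatives were merging, sites with support from both sides or at 0.5 and above, higher coverage, window widths, DESeq2 1.42.0, no filter, a replicate block, other distances and leaving out each library. Scripts used Python 3.11.15, pandas 2.3.3, scipy 1.17.1 and matplotlib 3.10.9. Whether a site is also in the reference assembly, and the sequence of INE-1, were not analysed here.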

Additional observations from a re-analysis of the deposited data

How the results depend on the processing

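With support from both sides, 53 sites remained, with a median frequency of 0.760, 11.3% at a frequency of 1, 86.8% at 0.5 or above, 3.77% within 10 kb of another and a median spacing of 123780 bases. Fewer sites were left in this setting. With a coverage of at least 5, chosen after seeing the data, 80 sites gave 0.463, 2.50%, 42.5%, 11.3% and 109250 bases, and 57.5% lay within 2 Mb of the proximal end. That share was 32.4% at 1 Mb and 77.0% at 5 Mb. The share linked was 23.7% at 5 kb, 57.9% at 20 kb, 34.5% among sites at 0.5 or above and 13.1% outside the proximal 2 Mb, where the spacing was 81377 bases. The other 11 values of sites kept within their intervals. Genes called up in double-GKD near sites supported from both sides were 12.5% (2 of 16). In the HP1a-GKD-labelled libraries the share called up was 8.11% with DESeq2 (1.51% over all genes), 8.11% with the replicate block (1.27% over all genes), 10.5% inside spans, 3.45% within 10 kb, 0 near sites supported from both sides and 0 to 7.89% with a library left out, and the cause was not tested. The other 72 shares of genes stayed within 1.5 times. No interval was taken for the 2 shares of 8.11%, so what is said of intervals in the main fit does not cover them. With a library left out, shares near INE-1 ran from 18.4 to 26.3% (up) and 15.8 to 23.7% (down) in double-GKD and from 21.1 to 26.3% and 18.4 to 27.0% in the Piwi-GKD-labelled libraries, and none was down in the HP1a-GKD-labelled ones. A lone library was assumed to vary like the other groups. Values near 0 changed sign, with ranges in the HP1a-GKD-labelled libraries of -0.029 to 0.34 (*sdk*), -0.24 to 0.12 (*alpha-Cat*), -0.059 to 0.086 (*heph*), -0.21 to 0.14 (*ZnT41F*), -0.060 to 1.40 (*Snap25*), -0.014 to 0.12 (*crc*) and -0.088 to 0.090 (HP1a mRNA), in double-GKD of -0.16 to 0.20 (*alpha-Cat*) and -0.53 to 0.93 (*Snap25*), and in the Piwi-GKD-labelled libraries of -0.040 to 0.021 (*heph*) and -0.043 to 0.23 (*lt*). Without the filter *alpha-Cat* had -0.018 in double-GKD, and with DESeq2 *heph* had 0.0013 in the Piwi-GKD-labelled libraries. Among the named genes, 381 alternative values kept direction and call, 20 lost the call, 6 gained it and 22 changed sign. Over all genes, the 82 called up and 46 down in the HP1a-GKD-labelled libraries were 141 and 100 with DESeq2, 119 and 74 with the replicate block and 19 and 4 without HP1a-GKD replicate 1. Replicate numbers were not taken to pair the samples in the main fit. Deviations of same-numbered libraries correlated at -0.04 to 0.23 over the 6 pairs of groups, and 4 of the 6 were over 0.1. Whether the numbers mark a shared preparation was not tested. With the replicate block, genes near INE-1 called up and down were 9 and 10 in double-GKD, 12 and 10 in the Piwi-GKD-labelled libraries and 3 and 0 in the HP1a-GKD-labelled ones, and HP1a mRNA had 0.0030 in the last. The block added calls for *lt* in double-GKD (edgeR adjusted p = 0.0130) and *alpha-Cat* in the Piwi-GKD-labelled libraries (0.0316). Over all genes it called 2868 up and 2897 down in double-GKD, against 2623 and 2627 without it. Coverage limits every frequency, and 1 DNA library gives no error between samples.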

Other observations

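The 125 INE-1 sites outside the 5 arms had median frequencies of 0.749 on chromosome 4 (46 sites), 0.766 on 2RHet (26), 0.787 on 3LHet (21), 0.750 on unplaced sequence (15), 0.785 on 3RHet (8), 0.686 on XHet (6) and 1 on 2LHet (3).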
